A study of Homo sapiens and Mus musculus with 74 samples.

Results

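Hemoglobin of the adult mouse is built from alpha chains, encoded by Hba-a1 and Hba-a2, and beta chains, encoded by Hbb-bs and Hbb-bt, each of which binds a heme group. Alas2, the erythroid form of 5-aminolevulinate synthase, catalyses the first step of heme synthesis in red cell precursors. These 5 genes were followed through 30 mouse libraries, as 5 of the 56404 genes in the count table, each by its transcript with the longest protein (142604 transcripts are listed in all). They were chosen by name, with earlier results of these data known. Mice lacked Rpl41, a ribosomal protein gene whose whole coding sequence had been removed with CRISPR-Cas9 in C57BL/6J zygotes (KO), or carried it intact (WT). Males 10 weeks old were used, with 3 libraries in each group. Kidney was assayed by RNA-seq of poly(A)-selected RNA, by Ribo-seq, which sequences the short RNA fragments protected by a ribosome, and by disome-seq, which sequences the longer fragments protected by a pair of adjacent ribosomes. Brain was assayed by RNA-seq and Ribo-seq. Neither the number of founders nor perfusion of the organs is given in the sources used here. Levels are given as CPM, the counts per 1000000 counts of the library, as mean ± SD with n = 3 unless otherwise stated.

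Globin mRNA is made in large amounts by nucleated red cell precursors in the bone marrow. It persists in reticulocytes, the young red cells that have lost the nucleus and still translate, and decays as they mature. Kidney tubule and neuron are not main sites of globin synthesis, so globin reads in an organ are often read as a measure of the blood it held, although some neurons and other cells are known to express hemoglobin at a low level. Translation of globin mRNA is matched to heme supply by the heme-regulated eIF2alpha kinase, encoded by Eif2ak1. Translation of Alas2 mRNA is matched to iron supply by iron regulatory proteins, encoded by Aco1 and Ireb2, which bind an iron-responsive element in its 5′ UTR.

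The genes lie on 3 chromosomes (GENCODE M21, GRCm38). Hba-a1 (ENSMUSG00000069919) spans chr11:32283511-32284465 and Hba-a2 (ENSMUSG00000069917) spans chr11:32296489-32297298, both on the plus strand. Hbb-bs (ENSMUSG00000052305) spans chr7:103826534-103827928 and Hbb-bt (ENSMUSG00000073940) spans chr7:103812524-103813996, both on the minus strand. Alas2 (ENSMUSG00000025270) spans chrX:150547375-150570638 on the plus strand. The globin transcripts have 3 exons each and that of Alas2 has 11. The 2 alpha genes encode the same 142 residues and the 2 beta genes the same 147, whereas Alas2 encodes 587.

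How far reads can tell the copies apart depends on sequence. The coding sequences of Hba-a1 and Hba-a2 (429 bases with the stop codon) differ at 1 base, C381T, and those of Hbb-bs and Hbb-bt (444 bases) at 1 base, C417T, where positions count from the A of ATG and the first letter belongs to the first gene named. Neither base changes the residue. The 28 coding bases around each difference, a length within the range of ribosome footprints, are printed here from the genome with the differing base in capitals, because these are the only coding stretches that separate the copies.
Hba-a1: catgcctctctggaCaaattccttgcct
Hba-a2: catgcctctctggaTaaattccttgcct
Hbb-bs: gtggctggagtggcCgctgccctggctc
Hbb-bt: gtggctggagtggcTgctgccctggctc
They lie at chr11:32284329-32284356, chr11:32297146-32297173, chr7:103826679-103826706 and chr7:103812670-103812697 in that order, the beta stretches on the minus strand. Of all 28-base windows in the coding sequence, 93.3% of those of either beta gene occur in another gene, as do 94.0% of those of Hba-a1 and 93.0% of those of Hba-a2. Alpha windows are shared in part with the pseudogene Hba-ps4 as well. In the 3′ UTR the beta genes share no window, while all 47 windows of Hba-a1 occur in Hba-a2. No window of Alas2 occurs in another gene. Multimapping reads were kept by the authors, so footprint counts of the 2 copies of a chain are close to the same reads counted for both, and the 4 globin genes are not 4 independent measurements.

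Both parts of the Alas2 control and of globin transcription can be seen in the reference. The Alas2 5′ UTR holds the letters CAGTG, the loop of an iron-responsive element, in capitals in the stretch below, with 5 base pairs possible between the flanking arms. Its first base is at position 150547458 and its last at 150552149 of chromosome X, with an intron between.
Alas2 5′ UTR: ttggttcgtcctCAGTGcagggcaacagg
The 120 bases before the annotated start are shown for a gene of each kind, with matches in capitals to CACCC (KLF1-like, also GGGTG), to CCAAT (also ATTGG), to TATAA (sense strand only) and to a GATA word (GATA with A or T before it and A or G after it, on either strand).
Hba-a2: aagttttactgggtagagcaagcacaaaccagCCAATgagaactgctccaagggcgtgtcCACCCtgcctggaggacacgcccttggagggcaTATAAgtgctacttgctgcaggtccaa
Hbb-bs: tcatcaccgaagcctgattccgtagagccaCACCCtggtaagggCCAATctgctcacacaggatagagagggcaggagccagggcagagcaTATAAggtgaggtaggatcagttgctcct
Alas2: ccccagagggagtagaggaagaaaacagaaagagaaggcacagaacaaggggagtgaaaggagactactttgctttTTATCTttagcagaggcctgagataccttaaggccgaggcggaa
These windows are chr11:32296369-32296488 (plus strand), chr7:103827929-103828048 (minus strand) and chrX:150547255-150547374 (plus strand). Hba-a2 and Hbb-bs each held 1 CACCC, 1 CCAAT and 1 TATAA, and Alas2 held 1 GATA word. The windows of the other copies differed, as Hba-a1 held 1 CACCC and 1 GATA word but no CCAAT or TATAA, and Hbb-bt held 3 CACCC and 1 CCAAT but no TATAA. Their annotated starts lie further from the ATG, with 5′ UTRs of 196 bases in Hba-a1 against 35 in Hba-a2. Those of Hbb-bt and Hbb-bs have 127 and 53 bases. The windows of 2 copies thus cover different stretches, and do not show that a copy lacks a match nearer its ATG. Among 21938 windows of the same length before mouse genes, 32.8% held CACCC, 23.5% CCAAT, 8.72% TATAA and 11.3% a GATA word. A match is a match of letters, and occupancy was not measured.

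Library totals ranged from 44998381 to 55077048 counts in kidney RNA-seq, from 84433838 to 123745890 in brain RNA-seq, from 11036643 to 42452425 in kidney Ribo-seq, from 9498663 to 35881929 in brain Ribo-seq and from 1187636 to 3018963 in disome-seq. Rpl41 checked the labels, with 82.1 to 146 CPM in WT RNA-seq of kidney and brain and 0.0545 to 0.177 CPM in KO. Defining markers fitted the labelled organs: between WT kidney and WT brain, all 9 kidney genes listed were called higher in kidney and all 9 brain genes lower, in RNA-seq and in Ribo-seq. The KO kidney RNA-seq libraries 2 and 3 stood apart, with 1.76% and 1.67% of counts on mitochondrial rRNA against 0.436% to 0.962% in the other 4 and with 83287 and 86071 transcripts detected against 91222 to 93091. WT brain replicate 2 stood apart in globin counts, as described next, and values without them are given with the main results of each assay. In bulk tissue, fewer red cells and less globin RNA per red cell cannot be told apart.

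In WT brain, globin transcripts were among the most abundant of all. Hbb-bs had 184, 509 and 167 CPM in the 3 WT RNA-seq libraries and 84.9, 186 and 111 CPM in the 3 KO libraries. WT replicate 2 was the highest library by a wide margin, and KO replicate 2 lay just above the lower WT libraries. Hba-a1 had 262, 776 and 249 CPM in WT and 132, 217 and 154 CPM in KO, so here the KO libraries all lay below the WT libraries. Hba-a2 ranged from 240 to 748 CPM in WT and from 128 to 208 CPM in KO, and Hbb-bt from 111 to 349 CPM in WT and from 57.4 to 120 CPM in KO. Alas2 was far less abundant, with 3.04, 12.4 and 3.61 CPM in WT and 1.98, 2.72 and 2.32 CPM in KO. WT replicate 2 was again the highest, and KO lay below WT.

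Ribosome footprints in brain were again highest in WT replicate 2. Hbb-bs footprints were at 179, 489 and 192 CPM in WT and at 108, 127 and 102 CPM in KO. Hba-a1 footprints were at 147, 417 and 156 CPM in WT and at 77.4, 95.2 and 69.9 CPM in KO. For both chains every KO library lay below every WT library, and the KO libraries were close to each other. Alas2 footprints overlapped between genotypes, with 2.41 to 6.42 CPM in WT and 1.61 to 2.56 CPM in KO, from 50 to 69 counts and 35 to 92 counts per library.

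**Figure D1:**
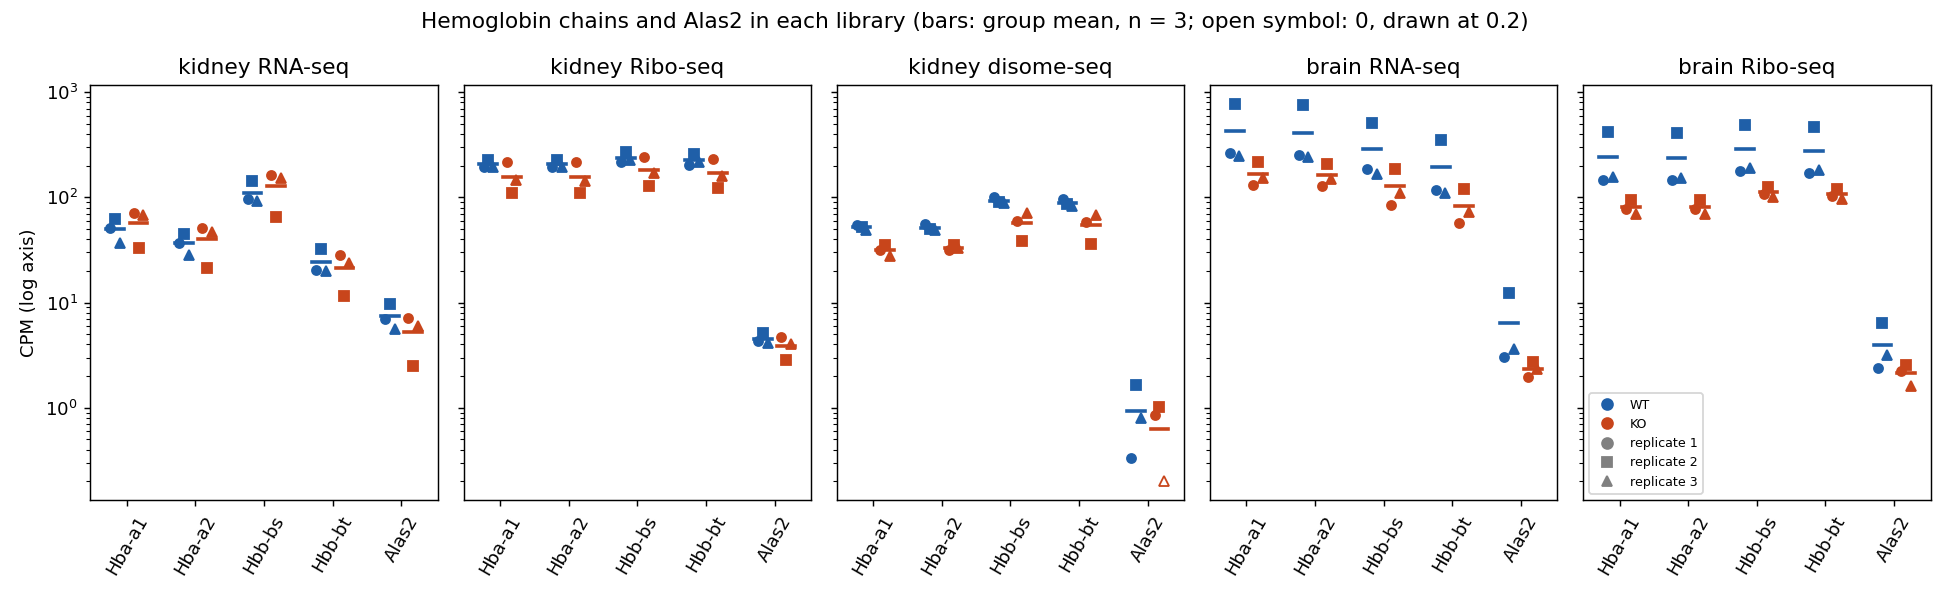
CPM (log axis) of the 5 genes in each of the 30 libraries, by organ and assay, with WT in blue, KO in orange, a symbol shape for each replicate number and bars at the group mean. In brain the square of WT replicate 2 lies highest in every gene, at 509 CPM for Hbb-bs RNA, while kidney RNA-seq groups overlap for all 5 genes.

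Tested across all transcripts with edgeR's quasi-likelihood method, none of the 5 genes passed in brain. In brain Ribo-seq the log2 fold change, KO against WT, was -1.56 (SE 0.33) for Hba-a1, -1.55 (SE 0.33) for Hba-a2, -1.34 (SE 0.31) for Hbb-bs, -1.34 (SE 0.31) for Hbb-bt and -0.76 (SE 0.32) for Alas2, with a median of -0.01 over all transcripts tested. Unadjusted p was 0.000434 for Hba-a1 and 0.000927 for Hbb-bs in edgeR's fit, and adjusted p was 0.179 and 0.189. Called transcripts were 0.0345% of those tested, and at an unadjusted p under 0.05 they were 12.6%, with all 5 genes among them. The KO and WT groups did not overlap for 4 of the 5 genes, against 10.4% of all transcripts tested with every KO library below every WT library. In brain RNA-seq the log2 fold change was -1.28 (SE 0.47) for Hba-a1, -1.28 (SE 0.46) for Hba-a2, -1.09 (SE 0.49) for Hbb-bs, -1.13 (SE 0.50) for Hbb-bt and -1.38 (SE 0.52) for Alas2, all with adjusted p = 0.898. There, 0.0134% of transcripts were called and 3.46% had an unadjusted p under 0.05, with 3 of the 5 genes among them (Hba-a1, Hba-a2 and Alas2). The same 3 genes had KO below WT without overlap, against 5.69% of all transcripts tested. DESeq2 also called 0 of the 5 genes in either brain assay and in either kidney assay of RNA or footprints.

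Much of the size of this difference came from WT replicate 2. Its CPM was 2.90 times the mean of the other WT libraries for Hbb-bs RNA and 2.63 times for Hbb-bs footprints. Without it the log2 fold change in Ribo-seq moved to -0.86 (SE 0.12) for Hba-a1 and -0.68 (SE 0.10) for Hbb-bs, with adjusted p of 0.11 and 0.142 in edgeR. KO footprint levels still lay below those of the remaining WT libraries for all 4 globin genes, at 0.533 (Hba-a1) to 0.606 (Hbb-bt) of their mean. In RNA-seq without it the value moved to -0.49 (SE 0.27) for Hba-a1 and -0.34 (SE 0.36) for Hbb-bs, and Hbb-bs and Hbb-bt overlapped. The filter on low counts also decided the call: with every transcript kept that had 1 count in any library, all 4 globin genes passed in brain Ribo-seq (Hba-a1 adjusted p = 3.84e-09, Hbb-bs 9.21e-08, edgeR), and 1.24% of transcripts then passed.

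**Figure D2:**
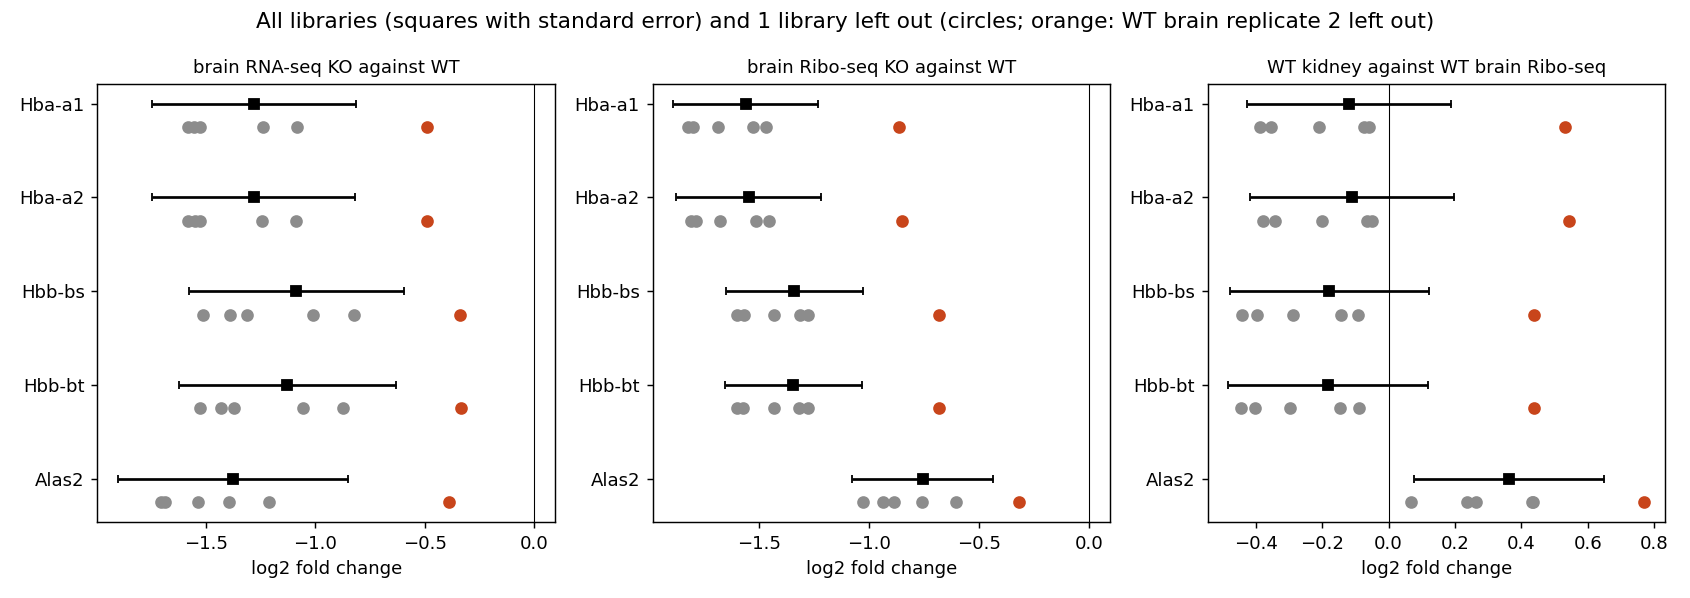
Log2 fold changes of the 5 genes with all libraries (squares, bars for the standard error) and with 1 library left out in turn (circles, orange where WT brain replicate 2 is left out). Leaving out this replicate moves every KO-against-WT value in brain toward 0, to -0.34 for Hbb-bs RNA, and turns the sign of the globin values between WT kidney and WT brain in Ribo-seq.

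In kidney RNA-seq none of the 5 genes passed. Hbb-bs had 96.5, 143 and 92.7 CPM in the WT libraries and 164, 65.6 and 153 CPM in the KO libraries, with KO replicate 2 the lowest and KO replicate 1 the highest of the 6. Hba-a1 ranged from 36.6 to 62.5 CPM in WT and from 33.0 to 70.9 CPM in KO, and Alas2 from 5.60 to 9.70 CPM in WT and from 2.51 to 7.21 CPM in KO. All 5 genes overlapped between groups. The log2 fold changes were 0.34 (SE 0.31) for Hba-a1, 0.26 (SE 0.31) for Hba-a2, 0.35 (SE 0.33) for Hbb-bs, -0.04 (SE 0.33) for Hbb-bt and -0.38 (SE 0.37) for Alas2, with adjusted p between 0.528 and 0.946 (edgeR). None had an unadjusted p under 0.05, where 0.00992% of all transcripts were called and 16.8% had such a p. Without KO replicate 2 the value moved to 0.65 for Hbb-bs, 0.60 for Hba-a1 and -0.06 for Alas2, and without KO replicate 3 to 0.15, 0.155 and -0.52, with none passing.

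Kidney footprints were lower in KO by value, without passing the test. Hbb-bs footprints were at 216, 268 and 228 CPM in WT and at 244, 128 and 169 CPM in KO. KO replicate 1, which had the fewest counts of the 6 libraries, lay among the WT libraries, and KO replicates 2 and 3 lay below them. The other globin genes followed the same order. KO replicates 2 and 3 had the most counts, 42452425 and 39384669, against 13573525 to 25882664 in WT. Their mitochondrial rRNA shares were the lowest, 0.208% and 0.185%, against 0.357% to 0.538% in WT and 0.505% in KO replicate 1. The part of these library differences in the globin values was not tested. The log2 fold changes were between -0.31 and -0.32 for the 4 globin genes (SE 0.22, adjusted p 0.389 to 0.394) and -0.22 (SE 0.20, adjusted p = 0.531) for Alas2, in a comparison where edgeR called 7.76% of transcripts and 25.3% had an unadjusted p under 0.05, with 0 of the 5 genes among them. Without KO replicate 1, all 4 globin genes passed, with log2 fold changes from -0.63 (Hbb-bs, adjusted p = 0.0396) to -0.66 (Hba-a2, adjusted p = 0.03) in edgeR, among 6.45% of transcripts called, while without KO replicate 2 they moved to -0.09.

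Disome-seq counts of the globins in kidney also lay lower in KO. Hbb-bs had 99.8, 90.1 and 88.8 CPM in WT, from 301, 272 and 111 counts, and 59.4, 38.5 and 71.6 CPM in KO, from 138, 75 and 85 counts. Hba-a1 had 55.0, 52.0 and 48.8 CPM in WT and 31.4, 34.9 and 27.8 CPM in KO. For all 4 globin genes every KO library lay below every WT library, as was so for 11.4% of all transcripts tested. The log2 fold changes were -0.66 (SE 0.18) for Hba-a1, -0.58 (SE 0.18) for Hba-a2, -0.68 (SE 0.19) for Hbb-bs and -0.68 (SE 0.19) for Hbb-bt, with unadjusted p from 0.00103 (Hba-a1) to 0.003 (Hba-a2). Adjusted p in edgeR ran from 0.142 to 0.196, where 0.201% of transcripts were called and 10.8% had an unadjusted p under 0.05, and DESeq2 gave these genes no adjusted p. With no filter on low counts Hbb-bs (adjusted p = 0.0362, edgeR) and Hbb-bt (0.0427) passed, among 0.287% of transcripts called. Both also passed with replicate number as a block. In disome-seq 3 of 3 same-numbered WT and KO libraries correlated best, but weakly (r of 0.052, 0.10 and 0.11). The labels give no shared animal or batch. The 2 beta genes mostly share disome reads, so their calls are not independent. Alas2 had 0 to 5 disome counts per library and was not tested.

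**Figure D3:**
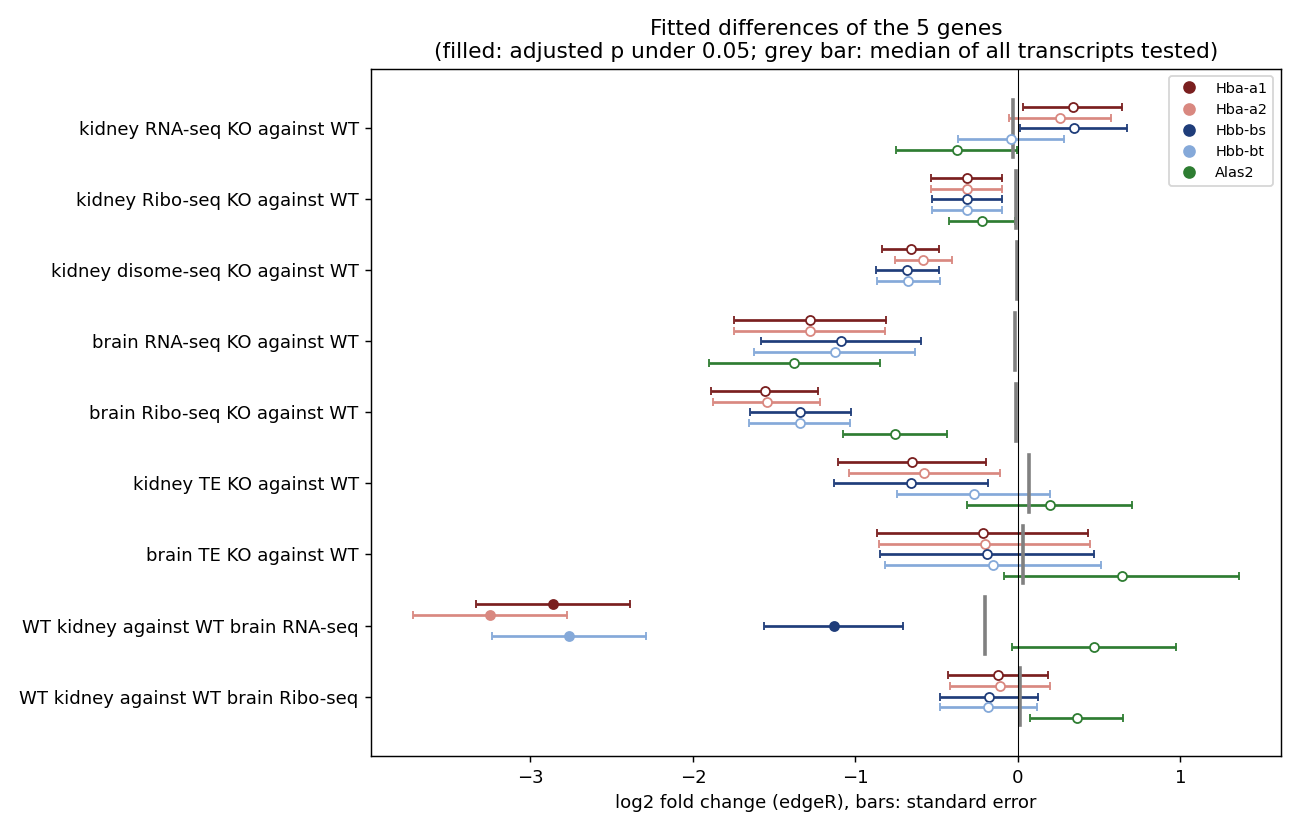
Log2 fold changes from edgeR with their standard errors for the 5 genes in 9 comparisons, where TE is translation efficiency and grey bars mark the median of all transcripts tested. Filled symbols, which passed at an adjusted p under 0.05, occur only for the 4 globin genes between WT kidney and WT brain RNA-seq.

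The change in kidney minus the change in brain, the interaction of tissue and genotype, tests whether the organs differed in their response. In RNA-seq it was 1.58 (SE 0.63) for Hba-a1, 1.51 (SE 0.64) for Hba-a2, 1.40 (SE 0.67) for Hbb-bs, 1.05 (SE 0.68) for Hbb-bt and 0.97 (SE 0.72) for Alas2 on the log2 scale. In Ribo-seq it was 1.21 (SE 0.44) for Hba-a1, 1.20 (SE 0.44) for Hba-a2, 1.00 (SE 0.42) for each beta gene and 0.51 (SE 0.40) for Alas2. None of these passed, with adjusted p of 0.585 to 0.653 in RNA-seq and 0.494 to 0.823 in Ribo-seq (edgeR), where 0.00108% and 0.0767% of transcripts were called. At an unadjusted p under 0.05 there were 2 of the 5 genes in RNA-seq and 4 in Ribo-seq, against 8.47% and 7.63% of all transcripts, and DESeq2 called 0. WT brain replicate 2 carried part of these values too, and without it the RNA-seq term was 0.77 for Hba-a1 and the Ribo-seq term 0.56.

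Footprints relative to RNA, or translation efficiency, gave no called difference between genotypes. The TE term in kidney was -0.65 (SE 0.46) for Hba-a1, -0.58 (SE 0.47) for Hba-a2, -0.66 (SE 0.47) for Hbb-bs, -0.27 (SE 0.47) for Hbb-bt and 0.20 (SE 0.51) for Alas2. In brain it was between -0.22 (Hba-a1, SE 0.65) and -0.15 (Hbb-bt, SE 0.67) for the globins and 0.64 (SE 0.72) for Alas2. Neither TE comparison called any of its transcripts (0%), at an unadjusted p under 0.05 there were 18.9% in kidney and 4.73% in brain, and none of the 5 genes was among them. DESeq2 called 4.56% of transcripts in kidney and 0.0182% in brain, with 0 of the 5 genes among them. Without the RNA-seq library of KO replicate 2 the kidney term was -0.965 for Hbb-bs and -0.13 for Alas2, and without that of KO replicate 3 it was -0.46 and 0.34. Disome counts relative to footprints in kidney gave terms from -0.34 (Hbb-bs, SE 0.31) to -0.24 (Hba-a2, SE 0.30) for the globins, with 0% of transcripts called and 5.84% at an unadjusted p under 0.05. The term for Alas2, at -0.07, rested on a handful of disome counts (SE 0.98). All these terms took libraries of different assays as independent. Same-numbered libraries of 2 assays correlated best in 3 of 3 cases within WT kidney, KO kidney and WT brain, but in 1 of 3 in KO brain. For Hba-a1 in WT brain the same-numbered log2 ratio of footprints to RNA ran from -0.90 to -0.68. The SE of its brain TE term was 0.65. The lack of calls therefore does not show that TE was unchanged.

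Between organs of WT mice the RNA-seq counts of the 4 globin genes were lower in kidney. The log2 fold change, kidney against brain, was -2.86 (SE 0.47, adjusted p = 0.000411) for Hba-a1, -3.25 (SE 0.47, adjusted p = 0.000169) for Hba-a2, -2.76 (SE 0.47, adjusted p = 0.000496) for Hbb-bt and -1.13 (SE 0.43, adjusted p = 0.0404) for Hbb-bs in edgeR, beside a median of -0.20 over all transcripts tested. Called transcripts were 64.1% of all tested here, 35.8% in this direction. The call for Hbb-bs was lost without WT brain replicate 2 (-0.42, adjusted p = 0.198), WT kidney replicate 1 (adjusted p = 0.125) or WT kidney replicate 3 (adjusted p = 0.0541). Alas2 did not pass, at 0.47 (SE 0.50, adjusted p = 0.436), and without WT brain replicate 2 it passed at 1.43 (adjusted p = 0.00339), higher in kidney. The globin counts of the 2 organs need not cover the same bases. A partial transcript without the 3′ part of Hbb-bs, described below, had 61.3% to 64.1% of the Hbb-bs count in WT brain RNA-seq. In WT kidney it had 3.43% to 16.8%. The part of coverage in the size of the globin differences was not tested.

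Globin footprints gave no called difference between the organs. WT means were 237 ± 27.4 CPM in kidney and 287 ± 175 CPM in brain for Hbb-bs, and 207 ± 18.8 CPM against 240 ± 153 CPM for Hba-a1. The log2 fold change was -0.12 (SE 0.31, adjusted p = 0.741) for Hba-a1 and -0.18 (SE 0.30, adjusted p = 0.609) for Hbb-bs in edgeR, where 70.9% of transcripts were called. Without WT brain replicate 2 the sign turned and all 5 genes passed as higher in kidney, from 0.44 for Hbb-bs (adjusted p = 0.0242) to 0.77 for Alas2 (adjusted p = 0.00672). Which organ was higher in footprints thus rested on 1 brain library.

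Scaled by length, globin footprints ranked near the top of either organ. Per 1000 coding bases, Hbb-bs footprints averaged 650 CPM in WT brain, rank 6 of 20214 genes with counts, and 255 CPM in KO brain, rank 55 of 20258. The WT brain value rested in part on WT replicate 2, and without it was 421 CPM per 1000 coding bases, rank 20 of 19913. In kidney they averaged 538 CPM in WT, rank 27 of 20191, and 409 CPM in KO, rank 44 of 20479. Footprint counts of Hbb-bs mostly hold reads of both beta copies. Per 1000 transcript bases, Hbb-bs RNA was at rank 18 of 18747 in WT brain (rank 32 of 18476 without WT replicate 2) and at rank 113 of 16898 in WT kidney. The other chains ranked lower in WT kidney RNA-seq, with Hba-a1 at 343, Hba-a2 at 371 and Hbb-bt at 744. Alas2 footprints, at 2.27 CPM per 1000 coding bases in WT brain and 2.56 in WT kidney, ranked 10042 and 8784.

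Footprints were set against RNA gene by gene. In WT kidney the log2 ratio of mean footprint CPM to mean RNA CPM was 3.23 for Hbb-bt, above that of 98.6% of 11727 genes, 2.49 for Hba-a2, 2.05 for Hba-a1 and 1.10 for Hbb-bs, with a median of -0.17 over genes. In WT brain it was 0.51 for Hbb-bt, -0.00 for Hbb-bs and -0.84 for Hba-a1, with a median of -0.10. Alas2 was at -0.72 in kidney and -0.67 in brain. Disome counts relative to footprints were low for all 4 globins in WT kidney, at -1.99 for Hba-a1 and -1.35 for Hbb-bs on the log2 scale, where 1.10% and 5.57% of 5562 genes were lower and the median was -0.11. These ratios are descriptions over group means and carry no test. They are also not ratios for a single copy. In kidney the Hbb-bs to Hbb-bt count ratio was 1.04 to 1.055 in Ribo-seq, where the copies mostly share reads, and 4.45 to 6.42 in RNA-seq. The value of 3.23 for Hbb-bt thus sets footprints of both copies against RNA counted largely for 1, and does not measure footprint loading of that copy.

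A ratio between genes of 1 library takes out its overall globin level, and in RNA-seq these ratios differed by organ. The Hbb-bs to Hbb-bt count ratio was 4.45 to 4.78 in WT kidney RNA-seq, 5.72 to 6.42 in KO kidney RNA-seq and 1.46 to 1.56 in all 6 brain RNA-seq libraries. In the Ribo-seq and disome-seq libraries it stayed between 1.01 and 1.08, as footprints of the copies are mostly the same reads. With counts summed over all transcripts of a gene, the mean ratio was 7.03 ± 0.352 in WT and 8.62 ± 0.69 in KO kidney RNA-seq, so its level depended on the counting and the higher value in KO kidney did not. The alpha to beta count ratio lay between 0.579 and 0.750 for kidney RNA, between 1.39 and 1.83 for brain RNA and between 0.870 and 0.932 for kidney footprints. For brain footprints the WT libraries lay between 0.825 and 0.868 and the KO libraries, without overlap, between 0.702 and 0.768. These ratios are given as values, with no test.

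Counts of a partial beta transcript show how reads were spread along Hbb-bs. A second listed beta transcript, Hbb-bs-203, shares bases 43 to 364 of the 628-base Hbb-bs-201, which leaves the 3′ UTR and the end of the coding sequence to Hbb-bs-201. Reads in the shared bases can count for both. Its count was 59.4% to 64.1% of that of Hbb-bs-201 in brain RNA-seq, 3.43% to 16.8% in WT kidney RNA-seq and 1.28% to 5.33% in KO kidney RNA-seq, against 78.6% to 81.4% in all Ribo-seq libraries. The genotypes overlapped in kidney RNA-seq, where the Hbb-bs to Hbb-bt ratio did not. Few of the kidney RNA-seq counts of Hbb-bs were thus matched by counts of the transcript that lacks its 3′ part. The part of coverage in the organ and genotype differences of RNA-seq ratios was not tested.

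Alas2 set against globin also split the genotypes in kidney RNA-seq, as the Hbb-bs to Hbb-bt ratio did. Per 1000 globin counts there were 34.4, 34.3 and 31.5 Alas2 counts in the WT libraries and 22.9, 19.1 and 20.3 in the KO libraries, so the groups did not overlap. How often ratios of other genes split in this way was not counted, and this ratio carries no test. In the other assays it was not lower in KO, and in brain Ribo-seq it was higher without overlap. Kidney Ribo-seq gave 4.93 to 5.29 in WT and 5.19 to 6.48 in KO, brain RNA-seq 3.72 to 5.21 in WT and 3.72 to 4.91 in KO, and brain Ribo-seq 3.59 to 4.59 in WT and 4.75 to 6.12 in KO. KO replicates 2 and 3 had the lowest shares of Hbb-bs-203 and the higher mitochondrial rRNA shares, and their part in the split was not tested. KO replicate 1, at 22.9, was below every WT library as well. Its Hbb-bs-203 share of 5.33% lay within the broad WT range. It is only 1 library, and the part of coverage in its ratio was not tested either.

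**Figure D4:**
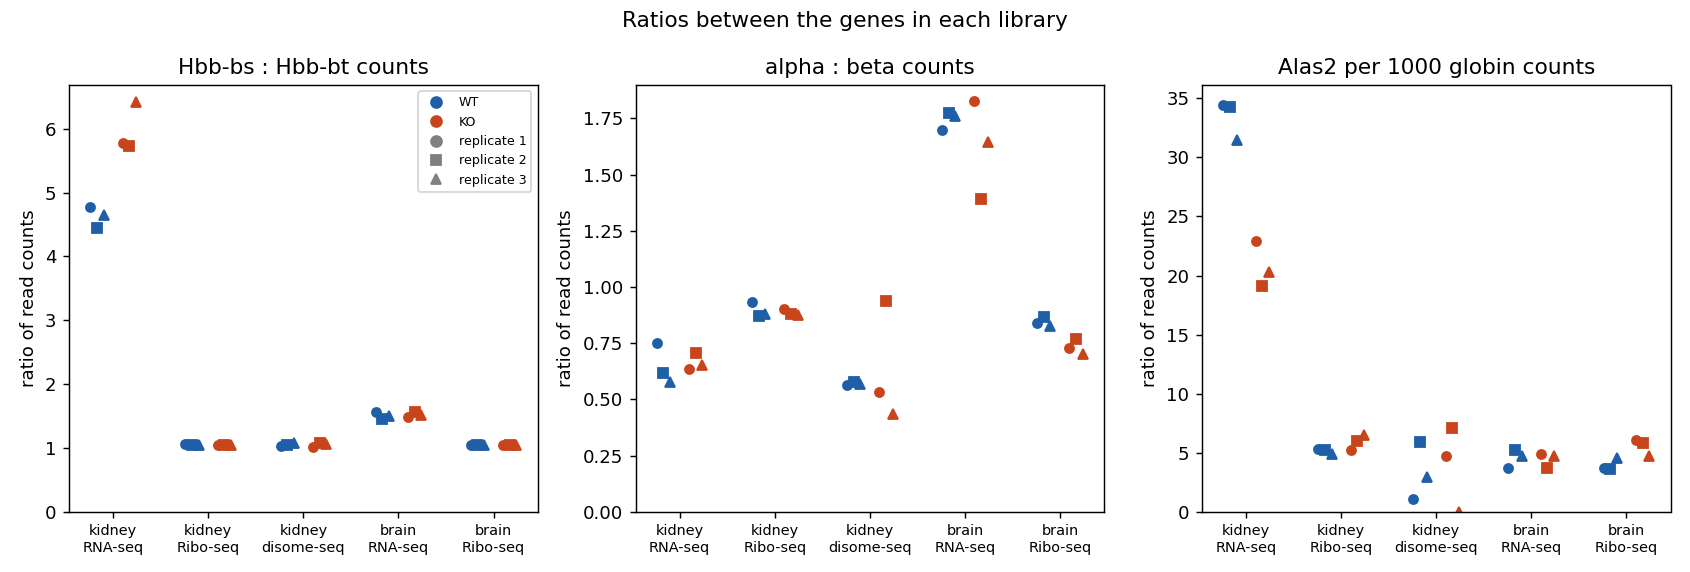
Ratios of read counts in each of the 30 libraries, with WT in blue, KO in orange and linear axes from 0. Kidney RNA-seq stands apart in the Hbb-bs to Hbb-bt ratio (4.45 to 6.42) and in Alas2 per 1000 globin counts (19.1 to 34.4), and brain RNA-seq in the alpha to beta ratio (1.39 to 1.83).

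Across libraries the levels of the 5 genes varied together. After centring log2 CPM within each organ and assay, the genes most like Hbb-bs over 24 RNA-seq and Ribo-seq libraries, among 12974 genes, were Hbb-bt (r = 0.988), Hba-a2 (0.988), Hba-a1 (0.985) and Alas2 (0.901). The next were Arl2bp (0.743), Tent5c (0.724), Ube2l6 (0.721), Gm28529 (0.716), Zfpl1 (0.716) and Sec61b (0.712). The globin copies share reads, and Alas2 shares no 28-base window with a globin. All these r values include the high WT brain replicate 2. Its Alas2 CPM was 3.74 times (RNA-seq) and 2.31 times (Ribo-seq) the mean of the other WT libraries. The part of this replicate in the r values was not tested. Over the 12 RNA-seq libraries alone Alas2 followed the globins with r = 0.895, then Tmsb15b1, Nat8f4, Kcnk5, Psmb9, Slc25a39 and Gm11842 (0.813 to 0.774). Over the 12 Ribo-seq libraries r was 0.957 for Alas2 and 0.951 for Tent5c, a poly(A) polymerase known to act in erythroid cells, with the pseudogenes Hba-ps4 and Hba-ps3 at 0.994 and 0.960 and Mrps11, Dad1 and Fas at 0.939 to 0.933. These are descriptions of the same libraries, without a test.

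Other genes of the red cell were measured as a list of 33, of which 32 are in the table. In brain Ribo-seq 15 of them were tested, none passed, 10 had a log2 fold change below 0 and the median was -0.16. In brain RNA-seq none of 19 passed, 9 were below 0 and the median was 0.01. Of all transcripts tested, 52.3% were below 0 in each of these assays. The most abundant members of the list, such as Tfrc (transferrin receptor), Epb41, Bnip3l, Ube2o, Tmcc2 and Mkrn1, are also expressed in other cells. Slc4a1, the band 3 anion exchanger of the red cell membrane, was looked at after its values were seen and had 0.641 ± 0.195 CPM in WT and 0.109 ± 0.101 CPM in KO brain Ribo-seq, from 1 to 19 counts (log2 fold change -2.71, SE 0.56, adjusted p = 0.179). In kidney it is also a gene of collecting duct cells, and was at 17.4 ± 9.60 CPM in WT and 11.7 ± 0.474 CPM in KO RNA-seq. In kidney Ribo-seq 1 of 14 red cell genes passed, Slc25a37 (mitoferrin-1, -0.66, SE 0.19, adjusted p = 0.0487), where 7.76% of all transcripts were called. The call held without KO replicate 1 but with no other library left out, and was lost with DESeq2, 1 transcript per gene and counts summed per gene. In kidney RNA-seq none of 17 passed.

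Of the other globin genes, 9 were listed. Cygb and Ngb, cytoglobin and neuroglobin of non-blood cells, were at 25.2 ± 2.33 and 2.94 ± 0.305 CPM in WT and 27.0 ± 0.985 and 3.59 ± 0.426 CPM in KO brain RNA-seq, with log2 fold changes of 0.18 and 0.37 (adjusted p = 0.898 for each). In brain Ribo-seq they were at -0.14 and -0.03 (adjusted p = 0.616 and 0.993). The embryonic chain Hbb-bh1 had 1.50 ± 1.34 CPM in WT and 0.276 ± 0.125 CPM in KO brain Ribo-seq (log2 fold change -2.08, SE 0.60, adjusted p = 0.248) but 0 or 1 count in the RNA-seq libraries of brain.

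The 8 other enzymes of heme synthesis, which act in all cells, were listed as well. Alas1, the form used outside red cells, had 24.5 ± 1.88 CPM in WT and 27.5 ± 1.90 CPM in KO brain Ribo-seq (log2 fold change 0.18, adjusted p = 0.5), and the median of the list was 0.07. None passed in any KO-against-WT comparison of either organ. Among the 7 regulators of globin and Alas2 translation, Eif2ak1 had 26.4 ± 2.53 CPM in WT and 24.1 ± 1.03 CPM in KO brain Ribo-seq. In kidney Ribo-seq Aco1 (iron regulatory protein 1) rose by a log2 fold change of 0.54 (SE 0.13, adjusted p = 0.026). The call held in 2 of the 6 fits with a library left out.

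Among the KO-against-WT comparisons, genes for clearance of hemoglobin and heme were called in kidney Ribo-seq alone. Of 12 tested, 3 rose and 1 fell, where 7.76% of all transcripts were called. Those that rose were Lrp2 (megalin, 0.62, SE 0.17, adjusted p = 0.0456) and Cubn (cubilin, 0.61, SE 0.15, adjusted p = 0.0331), which take up filtered proteins in the proximal tubule, and Lrp1 (1.08, SE 0.25, adjusted p = 0.0247), a hemopexin-heme receptor. Slc48a1, a heme transporter, fell by 0.40 on the log2 scale (SE 0.10, adjusted p = 0.0317). With a library left out, Lrp2 passed in 1 of 6 fits, Cubn in 2, Lrp1 in 3 and Slc48a1 in 1, so each call depended on more than 1 library. Lrp2 did not pass with a minimum of 10 counts in every library, Lrp1 did not pass with DESeq2 or with counts summed per gene, and Slc48a1 did not pass with either of these or with no filter. In kidney RNA-seq Lrp2 was at -0.20 (adjusted p = 0.41) and Cubn at -0.38 (adjusted p = 0.292). The paper reports more footprints and modestly less RNA for transcripts of the longest proteins in both tissues of KO mice. Protein length was not taken into account here, and a link of these calls to hemoglobin or heme was not tested.

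Markers of other cells that come with blood or vessels were read in the same libraries. In brain, all 11 vessel endothelium genes had a log2 fold change below 0 in RNA-seq (median -0.61) and in Ribo-seq (median -0.66), against 52.3% of all transcripts tested in each, and none passed. Flt1, a VEGF receptor, was at 20.6 ± 7.65 CPM in WT and 13.3 ± 2.80 CPM in KO Ribo-seq (-0.66, unadjusted p = 0.0113, adjusted p = 0.278), and Cdh5, VE-cadherin, at 8.99 ± 1.31 and 5.92 ± 0.567 CPM (-0.61, unadjusted p = 0.0006, adjusted p = 0.186). Unlike the globins, this list did not shrink without WT replicate 2, with medians of -0.75 in RNA-seq and -0.88 in Ribo-seq and all 11 genes still below 0. White blood cell genes had a median of -0.12 in brain RNA-seq (10 tested) and -0.20 in brain Ribo-seq (8 tested), and platelet genes of 0.27 (7 tested) and -0.47 (3 tested), with none called. In kidney Ribo-seq Igkc (immunoglobulin kappa constant, 1.26, SE 0.17, adjusted p = 0.00398) and Ptprc (CD45, 0.80, SE 0.20, adjusted p = 0.0298) rose while no globin passed, and so did the endothelial genes Eng (0.86, SE 0.17, adjusted p = 0.0132) and Pecam1 (0.57, SE 0.12, adjusted p = 0.0143). In kidney RNA-seq Eng and Pecam1 were at -0.40 and -1.86 (adjusted p = 0.292 for each), so the assays differed in direction by value. Igkc passed in all 6 fits with a library left out, Eng and Pecam1 in 4 and Ptprc in 3, and the call of Ptprc was lost with counts summed per gene and with library totals alone. These calls stand beside the 7.76% of all transcripts called in kidney Ribo-seq. There the 11 endothelial genes had a median of 0.37, with 2 below 0, Cldn5 (-0.64, adjusted p = 0.0714, edgeR) and Tek (-0.07). In kidney RNA-seq their median was -0.36, with 8 below 0. The part of vessel or white cell content in the globin levels was not tested.

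**Figure D5:**
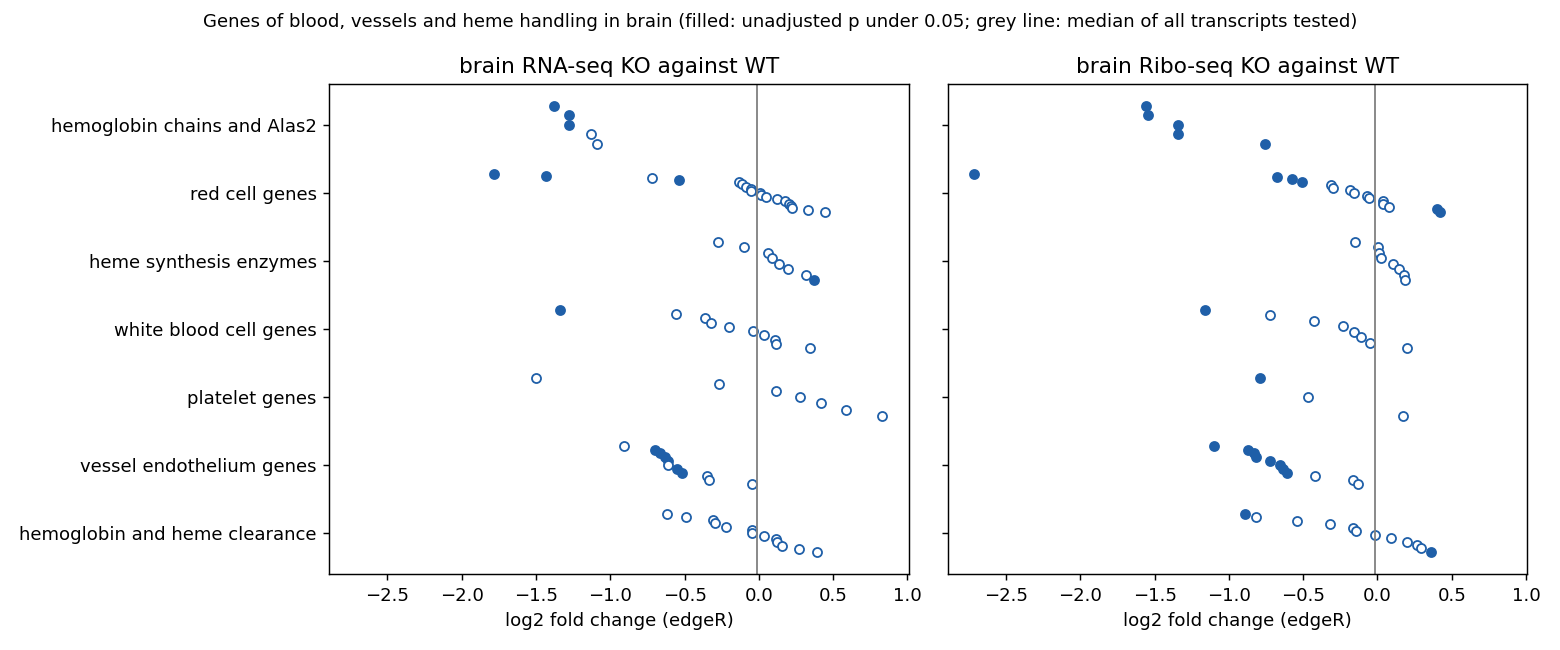
Log2 fold changes in brain, KO against WT, of the 5 genes and of 6 gene lists, with filled circles at an unadjusted p under 0.05 and a grey line at the median of all transcripts tested. The hemoglobin chains, Alas2 and all 11 endothelial genes lie left of 0 in both assays, and no gene shown passed after adjustment.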

How the data were processed

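The authors trimmed reads with cutadapt, removed rRNA reads, aligned the rest with STAR to GRCm38.p6 with multimapping allowed, and deposited raw read counts per transcript. Counting with featureCounts is described for human transcripts, and its settings for mouse and all versions are not given in the sources used here. Ribo-seq fragments had been sized as monosomes and disome-seq fragments as disomes after RNase I. Counts in all 30 mouse columns were used, 3 libraries per group. The table of human transcripts, whose 28 columns carry titles of mouse samples, and the 44 HEK293T samples were not analysed here. Identifiers were joined to GENCODE M21 without their version, and 141374 of 142604 matched.

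Genotypes were compared by edgeR 4.0.16 (filterByExpr, TMM, quasi-likelihood test) over all transcripts with Benjamini-Hochberg adjustment, threshold 0.05, and each SE was the log2 value divided by √F. TE, disome and tissue effects were interaction terms. This was not the tool the study used for TE, which was RiboDiff. Likeness used Pearson's r of log2(CPM + 0.5) on genes averaging at least 10 counts. Same-numbered WT and KO libraries correlated best in 0 of 3 cases in brain Ribo-seq but in 3 of 3 in disome-seq. As this did not hold in every assay, no pairing was used in the main fits. Same-numbered libraries of different assays were not paired there either. The 5 genes and the gene lists were chosen with earlier results of these data known. Besides the 5 genes and Rpl41, text names the called genes of each list, up to 3 of its most abundant genes in an assay and organ, and the 10 genes most like Hbb-bs, with Slc4a1 as an exception chosen after its values were seen. Some genes these rules name are not reported here. Alternatives were DESeq2 1.42.0, library totals, both extremes of filtering, 1 transcript per gene, counts summed per gene, a replicate block and leaving out each library. Scripts were tested on simulated counts. R 4.3.3, Python 3.11.15, numpy 2.4.6, pandas 2.3.3 and matplotlib 3.10.9 were used.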

Additional observations from a re-analysis of the deposited data

How the results depend on the processing

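Under DESeq2, library totals, a minimum of 10 counts in every library, 1 transcript per gene and counts summed per gene, each log2 fold change of the 5 genes kept its direction and, where an adjusted p was given, its side of the threshold. With no filter, 4 of the 5 genes passed in brain Ribo-seq, 2 in disome-seq and 2 for the tissue by genotype term of Ribo-seq. With a replicate block Hba-a1 and Hba-a2 passed in brain Ribo-seq, Hbb-bs and Hbb-bt in disome-seq and Alas2 between WT organs in RNA-seq (0.73, adjusted p = 0.033, edgeR), 2, 2 and 1 more than without it, and WT kidney against WT brain in Ribo-seq turned to 0.051 for Hba-a1 and 0.061 for Hba-a2. The numbers did not pair WT with KO in every assay. In kidney RNA-seq, kidney Ribo-seq, brain RNA-seq, brain Ribo-seq and disome-seq, 1, 2, 1, 0 and 3 of 3 libraries correlated best with their own number. In disome-seq r was 0.052, 0.10 and 0.11 for the same number, and at most 0.015 for another. The block also ended the calls of Aco1, Cubn, Lrp2, Slc25a37 and Slc48a1 in kidney Ribo-seq. The causes were not tested.

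With a library left out, 0 to 4 genes passed in kidney Ribo-seq and 0 to 5 between WT organs in Ribo-seq, and some log2 values turned sign. These ran from -0.24 to 0.25 (Hbb-bt, kidney RNA-seq), -0.35 to 0.024 (Alas2, kidney Ribo-seq), -0.13 to 0.44 (Alas2, kidney TE) and -0.051 to 1.33 (Alas2, tissue by genotype, RNA-seq). In brain TE they ran from -1.04 to 0.45 (Hba-a1), -1.03 to 0.47 (Hba-a2), -0.97 to 0.44 (Hbb-bs), -0.98 to 0.49 (Hbb-bt) and -0.40 to 1.09 (Alas2). For disomes relative to footprints they ran from -0.53 to 0.049, -0.45 to 0.13, -0.55 to 0.004, -0.54 to 0.011 and -0.63 to 0.89 in the same order. Between WT organs in Ribo-seq they ran from -0.39 to 0.53, -0.38 to 0.54, -0.44 to 0.44 and -0.44 to 0.44 for the 4 globins. Disome counts of Alas2 (0 to 5) were too few to read. For TE and for disomes relative to footprints, each fit left out a library of 1 assay and kept its same-numbered library of the other.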

Other observations

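Plasma protein genes of the liver gave footprints in brain with little RNA there. Hpx, hemopexin, had 14.3 ± 10.5 CPM in WT and 7.86 ± 6.47 CPM in KO brain Ribo-seq but 0.211 ± 0.137 and 0.132 ± 0.0395 CPM in brain RNA-seq. Hp, haptoglobin, had 7.07 ± 3.79 and 3.67 ± 1.84 CPM in brain Ribo-seq but 0.135 ± 0.0345 and 0.0891 ± 0.0511 CPM in brain RNA-seq. Neither passed between genotypes in Ribo-seq by edgeR (Hpx adjusted p = 0.55, Hp adjusted p = 0.367). The embryonic globin Hbb-y showed the same contrast of assays, with 1.28 ± 1.08 CPM in WT and 0.238 ± 0.108 CPM in KO brain Ribo-seq and at most 2 counts in a brain RNA-seq library. These genes were chosen after their values were seen, and the source of the footprints was not tested.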
